A study of Mus musculus with 282 samples.

Results

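Single-exon transcripts of unannotated genes were described across the hypothalamus of male mice fed a high fat diet, in a table with 282 columns, 1 for each mouse. The merged assembly of the study gives each transcript a class code, and code u marks a transcript that lies in no gene of the annotation used, GENCODE M2. Of 51024 transcripts in the deposited table, 485 carried code u. Of these, 204 had more than 1 exon, and the remaining ones, with exactly 1 exon, are the transcripts described here. Each lay in a locus of its own within this set, and 264 of them were the only transcript of their locus. The mice came from 99 strains of the Hybrid Mouse Diversity Panel, and 1 mouse whose labels name different strains was placed in none. Among these columns, mice OB-273 and OB-274 of CXB-6/ByJ were at 0 for the same transcripts and stood in 1 ratio (0.995) at all 45457 values compared. They differed by less than the sampling noise, so their mean was counted as 1 sample. This left 3 samples in 84 strains, 2 in 13 strains and 1 in 2 strains. Each library was made from the RNA of 1 mouse, with an unstranded mRNA kit. The panel held 25 classical inbred strains, 43 BXD strains (from C57BL/6J and DBA/2J), 18 AXB/BXA strains (from C57BL/6J and A/J), 7 CXB strains (from C57BL/6J and BALB/cJ) and 6 BXH strains (from C57BL/6J and C3H/HeJ). All mice shared sex and diet, the labels give no age, and no chow-fed group was analysed here.

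A transcript with 1 exon carries no splice junction, so an unstranded library gives no strand for it from splicing. Mammalian genomes hold many processed pseudogenes, which are copies of mature messenger RNAs that were reverse transcribed and inserted elsewhere, and which therefore lack the introns of their source gene. Short reads from such a copy can also match the source gene, and the other way round. The mouse reference genome is that of C57BL/6J, and other strains differ from it in sequence and in which insertions they carry.

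The position of the transcripts was read against GENCODE M21, a later annotation with the same coordinates as the assembly (GRCm38, also called mm10). M21 exons overlapped 170 of the single-exon transcripts. In 139 of them the overlapped gene was a pseudogene, and M21 calls 124 of these processed pseudogenes. A further 17 overlapped an exon of a coding gene, 14 overlapped only another non-coding gene, and 111 overlapped no M21 exon. Sequence was available for the 170 transcripts that overlap M21 exons, and 95 resembled a coding transcript elsewhere at 85% identity or more over at least 50% of their length. The matched gene encoded a cytosolic ribosomal protein for 20 transcripts, such as Rps15a, Rpl34 and Rpl7a. It belonged to the glycolytic and cytoskeletal list for 19, such as Gapdh, Ldhb and Tuba1a. Translation factors accounted for 4, oxidative phosphorylation and chromatin or RNA binding for 3 each, chaperones for 2, and 44 transcripts had a matched gene on none of these lists. The matched coding transcript had at least 2 exons for 90 of the 95, and for 81 of these at least 1 of its exon junctions lay inside the alignment.

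The following stretches show this for the copies that the later comparisons return to. Where a copy had several stretches without a gap, the one with the most differences is given. Each was taken from GENCODE M21 transcripts (GRCm38), has 60 bases and is written in the direction of the coding transcript, whose exon junction lies after base 30, and capitals mark the bases at which the copy and the coding transcript differ. TCONS_00326649 lies at chr7:136810826-136812657 in the processed pseudogene Gm9347 and resembles Phgdh, which catalyses the opening step of serine synthesis. The stretch is chr7:136811394-136811453, plus strand.
TCONS_00326649: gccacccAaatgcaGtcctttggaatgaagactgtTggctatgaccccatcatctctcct
Phgdh: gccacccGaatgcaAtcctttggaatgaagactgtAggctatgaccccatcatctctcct
TCONS_00298433 lies at chr6:136485350-136487357 in Gm6728 and resembles Coq2, an enzyme of coenzyme Q synthesis. The stretch is chr6:136486797-136486856, minus strand.
TCONS_00298433: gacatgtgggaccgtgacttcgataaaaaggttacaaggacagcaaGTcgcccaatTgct
Coq2: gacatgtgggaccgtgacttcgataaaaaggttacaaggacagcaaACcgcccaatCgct
TCONS_00124880 lies at chr15:90882496-90883920 in Tcea1-ps1 and resembles Tcea1, a transcription elongation factor. The stretch is chr15:90883263-90883322, plus strand.
TCONS_00124880: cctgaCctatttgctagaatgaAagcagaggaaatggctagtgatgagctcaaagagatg
Tcea1: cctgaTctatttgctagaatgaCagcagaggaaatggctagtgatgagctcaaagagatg
TCONS_00253863 lies at chr4:53791111-53791460 in Rps15a-ps8 and resembles Rps15a, a protein of the small ribosomal subunit. The stretch is chr4:53791128-53791187, minus strand, and it differs from Rps15a at 6 bases.
TCONS_00253863: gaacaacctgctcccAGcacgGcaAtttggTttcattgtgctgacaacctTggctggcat
Rps15a: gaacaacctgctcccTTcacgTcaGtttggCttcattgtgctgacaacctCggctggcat
TCONS_00317769 lies at chr7:3181068-3181973 in Gm3375 and resembles Psmb5, a catalytic subunit of the proteasome. In the stretch chr7:3181261-3181320, plus strand, the copy and Psmb5 were the same at all 60 bases.
TCONS_00317769: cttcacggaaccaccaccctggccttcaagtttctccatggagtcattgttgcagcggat
TCONS_00285482 lies at chr6:71124578-71125022 in Rpl34-ps1 and resembles Rpl34, a protein of the large ribosomal subunit. It too was identical to its coding transcript, in the stretch chr6:71124645-71124704, plus strand.
TCONS_00285482: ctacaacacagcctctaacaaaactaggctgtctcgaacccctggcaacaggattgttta

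Over the 95 transcripts with a matched coding gene, the median identity was 97%. Reads were 50 bases long, were sequenced in pairs and were aligned with up to 3 mismatches. In the median transcript 94.2% of all windows of 50 aligned bases differed from the coding transcript at 3 positions or fewer, and 28.5% did not differ at all. The windows take no account of read pairs, and a window with a difference can still tell copy from source. How reads were placed was not tested. The matched gene's own level was in the table for 86 of the 95. The mean FPKM (fragments scaled to transcript length and library depth) of the copy was below 5% of that of the matched gene for 71 of the 86, with a median of 1.07% and a range from 0.0667% to 44.1%.

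The transcripts were short and weakly expressed. Their length ran from 93 to 24188 nt with a median of 797 nt, and their mean FPKM from 0.386 to 2926 with a median of 1.08. Only transcripts above 0 in at least 100 mice and above 1 FPKM in at least 50 mice were in the table, so weaker ones could not appear. The assembly gave 182 no strand, 52 the plus strand and 47 the minus strand. All autosomes and the X chromosome held some, from 5 on chromosome 16 to 28 on the X, and the X held 9.96% of them against 3.66% of the known transcripts of class =. The longest was TCONS_00085162 with 24188 nt at chr13:28396174-28420361, with a mean of 1.31 FPKM and a strain share of variance of 0.0187. The shortest was TCONS_00326608 with 93 nt at chr7:111797510-111797602. It also had the highest values, with a lowest value of 213, a median of 2759 and a highest of 35256 FPKM over all mice, the last in mouse OB-547 of BXD-12/TyJ. The highest value without that mouse was 9703 FPKM. A transcript of 93 nt is shorter than many sequenced fragments, so its FPKM depends on how its length was corrected, which was not tested.

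The 4 transcripts with the highest means overlapped no M21 exon. After TCONS_00326608 these were TCONS_00033546 at chr10:96077524-96077970 with a mean of 1409 ± 565 FPKM (SD over all mice), TCONS_00076212 at chr12:97061423-97061819 with 479 ± 125 FPKM, and TCONS_00293944 at chr6:9889896-9890180 with 63.1 ± 14.7 FPKM. Without mouse OB-547 the means of TCONS_00033546 and TCONS_00076212 were 1381 and 474 FPKM. All 3 were above 0 in every mouse, with a lowest value of 31.7 FPKM for TCONS_00293944 and of 770 FPKM for TCONS_00033546. The next were TCONS_00069211 (108 nt, in Gm9158, mean 38.4 FPKM), TCONS_00083303 (20.8 FPKM), TCONS_00322976 in exons that M21 gives to Dlg2, a postsynaptic scaffold gene (18.9 FPKM), TCONS_00299196 (18.5 FPKM), TCONS_00083412 in Gm9616, a copy of the ribosomal gene Rps4x with 98.1% identity (17.2 FPKM), and TCONS_00362871 (128 nt, 10.5 FPKM). The means of TCONS_00069211 and TCONS_00362871 rested on a minority of mice, since 156 and 158 mice were at 0.

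FPKM carry no counts, but their low values were used to estimate what 1 fragment was worth. For 226 transcripts that were alone in their locus and at least 300 nt long, 91.4% of the 17947 values worth 0.5 to 5.5 fragments lay within 0.1 of a whole number. The worth of a fragment was fitted to these same values, so part of this share is built in. Of 157 transcripts with at least 20 such values, 18 had under 80% of them near a whole number. By the fitted worth the deepest library was 3.96 times as deep as the shallowest, and 1 FPKM in a library of median depth stood for 5.80 to 7.66 fragments in transcripts of 700 to 900 nt. Between 17 and 110 of the single-exon transcripts were at 0 in a mouse. A group of 19 libraries, among them every library of 6 strains, stood apart with 12931 to 18707 of all transcripts at 0 against 2817 to 10311 in the others. In these 19 libraries 60 to 104 of them were at 0, with a median of 77, which overlaps the range of 17 to 110 in the others, where the median was 46.

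Most of the transcripts differed between strains, more often than transcripts at large. The moderated F test over 99 strains called 214 of the single-exon transcripts, or 76.2%, while it called 45.9% of all 51024 transcripts and 56.9% of the 3452 that were alone in their locus. The latter include 264 of the single-exon transcripts, 199 of them called. Multi-exon transcripts of code u were called in 122 of 204 cases, and single-exon transcripts of known genes in 303 of 551. How much of the variance of log2(FPKM + 1) lay between strains was measured by an intraclass correlation, called the strain share below. Its median was 0.344 over the single-exon transcripts and 0.113 over all transcripts. The share was 0.5 or more in 104 of the single-exon transcripts (37.0%), 44 of the 204 multi-exon transcripts of code u and 58 of the 551 known single-exon transcripts. The median of the mean FPKM was 1.08 over the single-exon transcripts and 1.61 over all transcripts. A weak transcript was in the table only if it exceeded 1 FPKM in at least 50 mice. How far this favours transcripts that differ between strains was not tested, and sets of equal level were not compared.

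**Figure D1:**
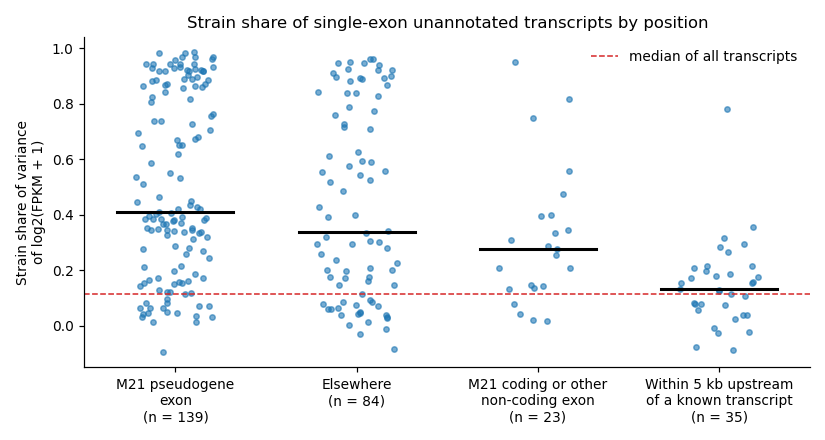
Strain share of variance of log2(FPKM + 1) on the vertical axis for the single-exon transcripts, 1 point each, in 4 groups by position, with black bars at group medians. The points in M21 pseudogene exons reach up to 0.986 around a median of 0.41, whereas those within 5 kb upstream of a known transcript lie around 0.132, close to the median of all transcripts at 0.113 (dashed line).

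The strain share went with position. Transcripts in M21 pseudogene exons had a median share of 0.41, and 117 of 139 were called. The 84 that overlapped no M21 exon and did not lie just upstream of a known transcript had a median of 0.336, with 62 called. The 23 in coding or other non-coding M21 exons outside the upstream group had a median of 0.276, with 18 called. The 35 within 5 kb upstream of a known transcript had a median of 0.132, with 17 called. The plot of strain share by position shows that the last group held 1 transcript above 0.5, TCONS_00210864 upstream of Uap1l1 with 0.782.

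The largest strain share, 0.986, belonged to TCONS_00041616 at chr10:42052547-42055471, which overlaps the processed pseudogene Gm9855. Its strain means ran from 0 to 2.63 FPKM. In fragments it stood at 0, 1 and 0 in the 3 C57BL/6J mice, at 71, 66 and 84 in the DBA/2J mice and at 70, 66 and 71 in the A/J mice. The groups did not overlap. TCONS_00226755, a copy of the acyl-CoA synthetase gene Acsf2 with 99.0% identity, had a share of 0.983 and strain means from 0 to 2.98 FPKM. TCONS_00205878, in Gm13736, had a share of 0.983 and strain means from 0.152 to 24.6 FPKM. TCONS_00382854, a copy of Actr3, which encodes a subunit of an actin-nucleating complex, had 0.970 and strain means from 0 to 6.18 FPKM. The other 6 of the 10 largest shares were TCONS_00352318 in D9Wsu149 (0.968), TCONS_00079801, a copy of the acetyl-CoA carboxylase gene Acaca (0.967), TCONS_00241327 (0.962), TCONS_00059866 in Gm12663 (0.961), TCONS_00023126 (0.960) and TCONS_00230671 in Gm37784 (0.958).

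The founder strains of the recombinant inbred sets were compared with C57BL/6J, and the differences ran almost all one way. Each single-exon transcript lay in no gene of an annotation of the C57BL/6J genome and had to exceed 1 FPKM in at least 50 mice. How far this choice favours transcripts that are low in C57BL/6J was not tested. In DBA/2J 68 of the single-exon transcripts were higher and 4 lower than in C57BL/6J, while over all transcripts 0.996% were higher and 0.935% lower. In A/J 51 were higher and 4 lower (0.772% and 1.06% of all transcripts). In BALB/cJ 52 were higher and 1 lower (0.796% and 0.849%). In C3H/HeJ 59 were higher and 2 lower (0.923% and 0.870%). With only the 2 strains of a comparison in the fit, 42 transcripts were called higher and 2 lower in DBA/2J, and 21, 24 and 32 were called in A/J, BALB/cJ and C3H/HeJ, each of them higher. All 4 comparisons use the same 3 C57BL/6J mice and so are not independent of each other. The median difference in log2(FPKM + 1) over the single-exon transcripts was 0.50, 0.22, 0.27 and 0.30 in the order DBA/2J, A/J, BALB/cJ and C3H/HeJ, and lay between -0.01 and 0.01 over all transcripts. Among transcripts alone in their locus 3.88% were higher and 1.36% lower in DBA/2J, 2.90% and 2.06% in A/J, 3.04% and 1.36% in BALB/cJ, and 3.51% and 1.27% in C3H/HeJ. That set includes 264 of the single-exon transcripts, which gave 66 of its 134 rises and 3 of its 47 falls in DBA/2J. They also gave 49 of its 100 rises in A/J, 51 of 105 in BALB/cJ and 57 of 121 in C3H/HeJ. Multi-exon transcripts of code u were higher in DBA/2J in 25 of 204 cases and lower in 2, and known single-exon transcripts in 24 of 551 cases and lower in 10.

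**Figure D2:**
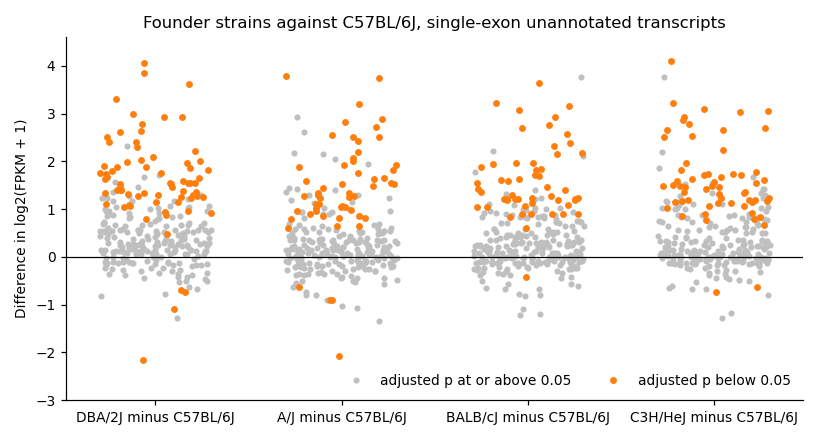
Difference in log2(FPKM + 1) from C57BL/6J on the vertical axis for each single-exon transcript in DBA/2J, A/J, BALB/cJ and C3H/HeJ, with 1 point per transcript and orange for an adjusted p below 0.05. The orange points lie mostly above 0, for instance 68 above and 4 below in DBA/2J, and reach 4.10 in C3H/HeJ.

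The largest rise in A/J, BALB/cJ and C3H/HeJ was that of the Psmb5 copy TCONS_00317769, which reached at most 0.00118 FPKM in a C57BL/6J mouse. It stood at 12.4, 8.78 and 13.2 FPKM in the DBA/2J mice, at 14.0, 13.4 and 11 in A/J, at 7.93, 12.7 and 15.1 in BALB/cJ and at 16.4, 19.1 and 13.6 in C3H/HeJ. Every mouse of these 4 strains was above every C57BL/6J mouse. The differences in log2(FPKM + 1) were 3.62, 3.78, 3.65 and 4.10, each with an SE of 0.48, and the adjusted p values 1.02e-09, 1.88e-10, 9.51e-10 and 3.55e-12. TCONS_00205878 divided the founders differently. It stood at 19.8, 21.1 and 21.2 FPKM in DBA/2J and at 18.2, 18.2 and 20.9 in A/J, but at 0.409 to 1.19 in BALB/cJ and 0.275 to 0.954 in C3H/HeJ, near the 0.192 to 0.825 of C57BL/6J. Its differences were 3.86 ± 0.20 (SE, adjusted p = 2.16e-41) in DBA/2J and 3.75 ± 0.20 (adjusted p = 7.46e-40) in A/J.

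The other large rises differed in which founders carried them. TCONS_00083292, a copy of the alpha tubulin gene Tuba1a in Gm7172, stood at 19.7, 22.6 and 23.7 FPKM in DBA/2J against 0, 0.0889 and 1.38 in C57BL/6J, a difference of 4.06 ± 0.35 (adjusted p = 2.26e-20), and at 1.0 to 3.88 in the other founders. TCONS_00067536, in Gm10039, stood at 17.4, 16.4 and 20.2 FPKM in BALB/cJ against 0.799 to 1.23 in C57BL/6J (3.23 ± 0.21, adjusted p = 9.00e-32), and at 1.24 to 2.68 in the other 3 founders. TCONS_00345940, at chr8:102535666-102536131, was at 0.278, 0 and 0 FPKM in C57BL/6J and at 5.31 or more in each of the 12 mice of the other founders, with rises of 3.16 ± 0.34 in BALB/cJ (adjusted p = 1.99e-14) and 3.22 ± 0.34 in C3H/HeJ (adjusted p = 5.80e-15). TCONS_00279721, at chr5:101520125-101520464, was at 0 in all 3 C57BL/6J mice and at 7.34, 8.21 and 9.15 FPKM in A/J (3.20 ± 0.28, adjusted p = 4.20e-20). TCONS_00382911, in Gm6368 and similar to the chaperone gene Hsp90ab1, was also at 0 in all 3 C57BL/6J mice, and stood at 8.84, 6.09 and 7.82 FPKM in C3H/HeJ (3.09 ± 0.49, adjusted p = 7.43e-07).

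Falls were few. TCONS_00326515, at chr7:61917050-61917368, was at 0 in all 3 DBA/2J mice and at 3.71, 3.49 and 3.15 FPKM in C57BL/6J, and fell by 2.15 ± 0.41 on the log2 scale (adjusted p = 7.38e-05). The next falls in DBA/2J, TCONS_00326497 at chr7:61074432-61075234 and TCONS_00306827 at chr7:61075718-61091095, lie on the same chromosome, TCONS_00306827 at a distance of 0.841 Mb. TCONS_00306827 was also the transcript most like TCONS_00326515 over strain means (r = 0.84). TCONS_00326497 stood at 0.387 to 0.610 FPKM in DBA/2J against 1.99 to 2.39 in C57BL/6J and fell by 1.09 ± 0.26 (adjusted p = 0.00381). TCONS_00306827, 15378 nt long, stood at 0.154 to 0.208 against 0.858 to 1.08 FPKM and fell by 0.73 ± 0.11 (adjusted p = 1.67e-08). TCONS_00023369, at chr1:179648611-179649162, was at 0 in all 3 A/J mice and at 5.65, 2.13 and 2.53 FPKM in C57BL/6J, and fell by 2.07 ± 0.33 (adjusted p = 5.71e-07). The abundant TCONS_00076212 stood at 348, 333 and 356 FPKM in A/J against 695, 641 and 612 in C57BL/6J, and fell by 0.90 ± 0.14 in A/J (adjusted p = 8.30e-08) and by 0.73 ± 0.14 in C3H/HeJ (adjusted p = 3.39e-05). TCONS_00293944 fell by 0.91 ± 0.19 in A/J (adjusted p = 0.000385) and by 0.64 ± 0.19 in C3H/HeJ (adjusted p = 0.0471). TCONS_00178527, which overlaps M21 exons of the Wnt pathway gene Frat1, fell by 0.42 ± 0.12 in BALB/cJ (adjusted p = 0.0465). The C3H/HeJ fall of TCONS_00293944 and that of TCONS_00178527 lie near the threshold of 0.05, and each was lost under several other settings. With only the 2 strains of a comparison in the fit, every fall named in A/J, BALB/cJ and C3H/HeJ, and that of TCONS_00306827 in DBA/2J, lost its call in limma, with adjusted p values from 0.0799 for TCONS_00023369 to 0.541 for TCONS_00178527. The rises named above kept theirs.

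The number of transcripts that were off, meaning below 0.1 FPKM in every mouse of a strain, differed among strains. In C57BL/6J 56 of the single-exon transcripts were off, while 4.31% of all transcripts and 3.16% of those alone in their locus were. The 109 off among those alone in their locus include these 56. In DBA/2J 4 of the single-exon transcripts were off (4.63% of all transcripts), in A/J 9 (4.26%), in C3H/HeJ 10 (4.43%) and in BALB/cJ 14 (4.08%). Among 24 classical inbred strains with 2 or 3 mice, C57BL/6J had the most transcripts off and DBA/2J the fewest. The choice of transcripts, described with the founder comparisons, may bear on this order, which was not tested. C57L/J followed C57BL/6J with 37, and C57BLKS/J had 25. The ranges of relative depth overlapped, with 1.46 to 2.38 times the shallowest library in C57BL/6J, 2.08 to 2.43 in DBA/2J, 1.82 to 2.19 in A/J, 1.65 to 2.53 in BALB/cJ and 1.81 to 2.37 in C3H/HeJ. The recombinant inbred sets, all of which descend in part from C57BL/6J, had medians of 27 (BXD, 43 strains), 32 (AXB/BXA, 17 strains), 26 (CXB, 7 strains) and 25.5 (BXH, 6 strains) against 17 over the other 23 classical inbred strains. The 2 strains with more transcripts off than C57BL/6J, BXHA1 with 87 and AXB-6/PgnJ with 58, had 2 mice each, and the libraries of BXHA1 are among the 19 that stood apart.

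**Figure D3:**
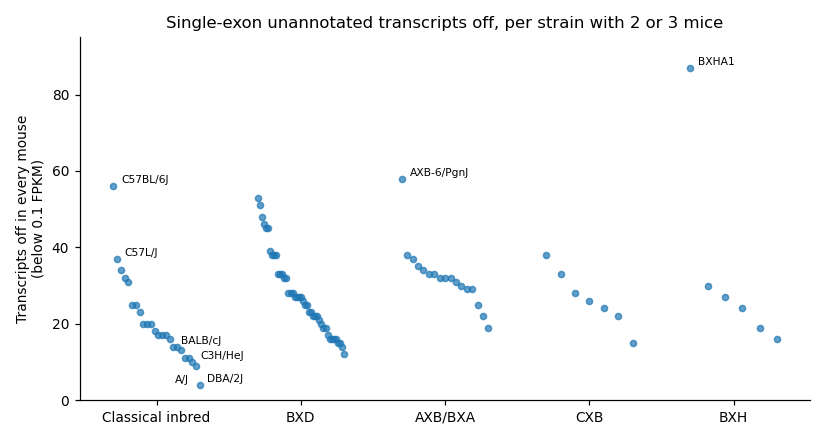
Number of single-exon transcripts below 0.1 FPKM in every mouse of a strain on the vertical axis, 1 point per strain with 2 or 3 mice, in 5 strain sets. Within each set the strains are in order of their number, and C57BL/6J with 56 stands above the other classical inbred strains, which run from 37 down to 4 in DBA/2J.

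A strict rule asked which transcripts were switched on or off across the panel. A strain with 2 or 3 mice was on where every mouse had at least 1 FPKM, and a pattern needed at least 3 strains off, at least 3 on and at least 80% of 97 strains in either state. The pattern was found for 13 of the single-exon transcripts, against 3.02% of all 51024 transcripts and 0.550% of those alone in their locus. The 19 with a pattern among those alone in their locus include these 13. The number of single-exon transcripts with a pattern depends on the rule, with 5 at 90% of strains, 118 with no limit on that share and 41 where off meant below 0.5 FPKM. Without the 19 libraries that stood apart it was found for 12 of them and 0.135% of all transcripts. In strains called off, 9 of the 13 were listed at 0 in every mouse, as in all 153 mice of the 54 strains in which TCONS_00253863 was off. In the other 4, the off mice carried at most 1 to 4 fragments.

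**Figure D4:**
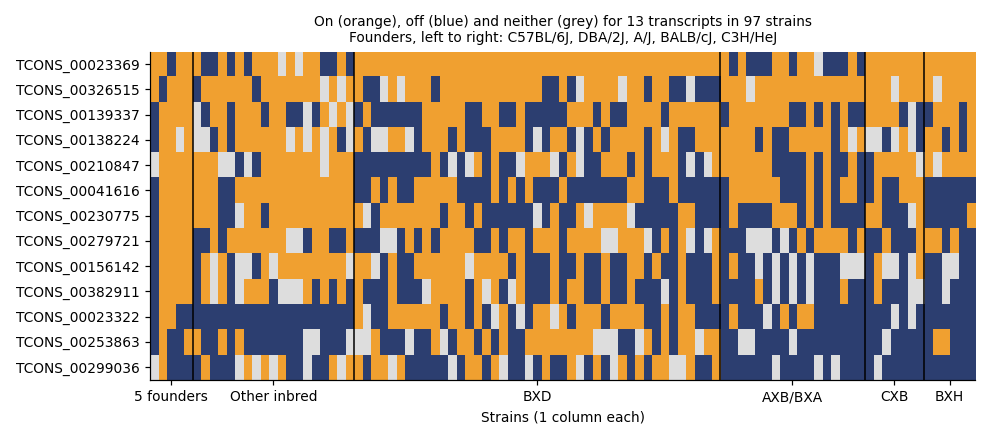
States of 13 transcripts (rows) in 97 strains (columns), orange where every mouse had at least 1 FPKM, blue where every mouse was below 0.1 FPKM and grey otherwise, with vertical lines between the strain sets. TCONS_00041616 has no grey column, with 49 strains on and 48 off, and its row is blue in all 6 BXH strains although C3H/HeJ is orange.

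TCONS_00041616 was on in 49 strains and off in 48, with no strain between the states. Among the classical inbred strains it was off in C57BL/6J, C57BLKS/J and C57L/J and on in the other 21. Where on, its values ran from 1.10 to 3.06 FPKM with a median of 2.23, which is a median of 66 fragments. TCONS_00139337, at chr17:13330496-13334073 in the M21 lincRNA AC166110.4, was on in 54 strains and off in 38, with at most 4 fragments in an off mouse and a median of 65 in an on mouse. TCONS_00230775, at chr3:129504985-129505774, was on in 48 and off in 43, and off in C57BL/6J, C57BLKS/J, C57L/J and LG/J among the classical inbred strains. TCONS_00023322, in the unprocessed pseudogene Gm17868, was off in 60 strains and on in 30, with only A/J and DBA/2J on among the classical inbred strains. TCONS_00023369 was the reverse case, on in 77 strains and off in 17, and off in A/J but on in C57BL/6J.

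The remaining 8 covered fewer strains. TCONS_00253863 in Rps15a-ps8 was off in 54 and on in 27, and on in 129X1/SvJ, C3H/HeJ, C57BLKS/J, CBA/J and DBA/2J. TCONS_00138224, at chr16:93135062-93135674, was on in 53 and off in 26, with a median of 5.88 FPKM where on. TCONS_00279721 was on in 48 and off in 36, TCONS_00210847 on in 51 and off in 32, and TCONS_00156142, at chr17:35303830-35304272 in the major histocompatibility region, on in 40 and off in 38. TCONS_00382911 was off in 51 and on in 31. TCONS_00299036, at chr6:52142462-52142980, was off in 56 and on in 23 with a median of 1.92 FPKM where on. TCONS_00326515 was on in 72 and off in 15, and among the classical inbred strains it was off in 129X1/SvJ, DBA/2J and KK/HlJ only. Some of these on states rested on few fragments. The median where on was 7 for TCONS_00299036, 12 for TCONS_00279721, 14 for TCONS_00253863 and TCONS_00156142, 25 for TCONS_00210847 and 27 for TCONS_00138224. The lowest on values were worth 1 fragment for TCONS_00253863 and 2 for TCONS_00279721 and TCONS_00156142. For TCONS_00326515 and TCONS_00382911 fragments were not recovered.

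Many transcripts with opposite states in a founder pair took both states among the recombinant inbred strains, beside many strains in neither state. C57BL/6J and DBA/2J had opposite states for 25 transcripts, with DBA/2J on for 24 of them and C57BL/6J for TCONS_00326515. Each of the 25 was on in some and off in others of the 43 BXD strains. Summed over the 25, 446 strain states were on, 347 off and 282 neither. TCONS_00083323, for instance, was on in 4, off in 16 and in neither state in 23 of the 43. TCONS_00139337 was on in 23 and off in 20 of the 43, TCONS_00041616 on in 14 and off in 29, TCONS_00023322 on in 24 and off in 15, and TCONS_00326515 on in 26 and off in 12. In the A/J pair 19 transcripts had opposite states, with A/J on for 18 and C57BL/6J for TCONS_00023369, and each of the 19 took both states in the 17 AXB/BXA strains. Summed over the 19, 114 strain states were on, 108 off and 101 neither. TCONS_00041616 was on in 10 and off in 7 of the 17 strains, and TCONS_00023369 on in 7 and off in 9. In BALB/cJ 20 transcripts were on that were off in C57BL/6J, and 12 of them took both states in the 7 CXB strains. Summed over the 20, 44 strain states were on, 32 off and 64 neither. In C3H/HeJ 21 transcripts were on that were off in C57BL/6J, and 14 of them took both states in the 6 BXH strains. Summed over the 21, 47 strain states were on, 50 off and 29 neither. Genotypes were not used here. Opposite founder states were not counted over all transcripts, so these counts are not read as a trait of the single-exon transcripts. Every transcript in the table had to exceed 1 FPKM in at least 50 mice. How far this fixes which states appear in the recombinant inbred strains was not tested.

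The pattern over strains was then compared between each transcript and all transcripts of other loci, by the correlation r of strain means of log2(FPKM + 1) over 99 strains. Many strain means fall into a low and a high cluster, so r is given as a measure of likeness between patterns only, without a p value. For 104 transcripts with a strain share of 0.5 or more, the most like transcript lay on another chromosome for 86. This share, 82.7%, is near that of all 4222 transcripts with such a strain share, 75.2%, and above the 64.2% of those alone in their locus and the 50% of multi-exon transcripts of code u. Those alone in their locus include 99 of the 104. Among the transcripts in M21 pseudogene exons the most like transcript lay on another chromosome for 56 of 62.

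The position of the most like transcript was then set beside that of the coding gene with a similar sequence, with no background share to read it against. Of 38 transcripts with a matched coding gene and a strain share of 0.5 or more, the most like transcript lay within 10 Mb of the matched gene for 24 and within 10 Mb of the transcript itself for 2, one of which has its matched gene close by. The most like transcript came from the matched gene itself for 7 of the 38, and r was negative for 19. For TCONS_00326649 it was a transcript of Phgdh on chromosome 3 (r = -0.88), for TCONS_00298433 one of Coq2 on chromosome 5 (r = -0.87), for TCONS_00285482 one of Rpl34 on chromosome 3 (r = -0.85) and for TCONS_00124880 one of Tcea1 on chromosome 1 (r = -0.86). For TCONS_00317769 it lay in Gm26782 on chromosome 14 (r = -0.94), within 10 Mb of Psmb5. A positive case was TCONS_00081071, a copy of the thioredoxin domain gene Txndc9 with 98.7% identity, most like a Txndc9 transcript on chromosome 1 (r = 0.89), while its r with the level of the whole gene was -0.71.

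**Figure D5:**
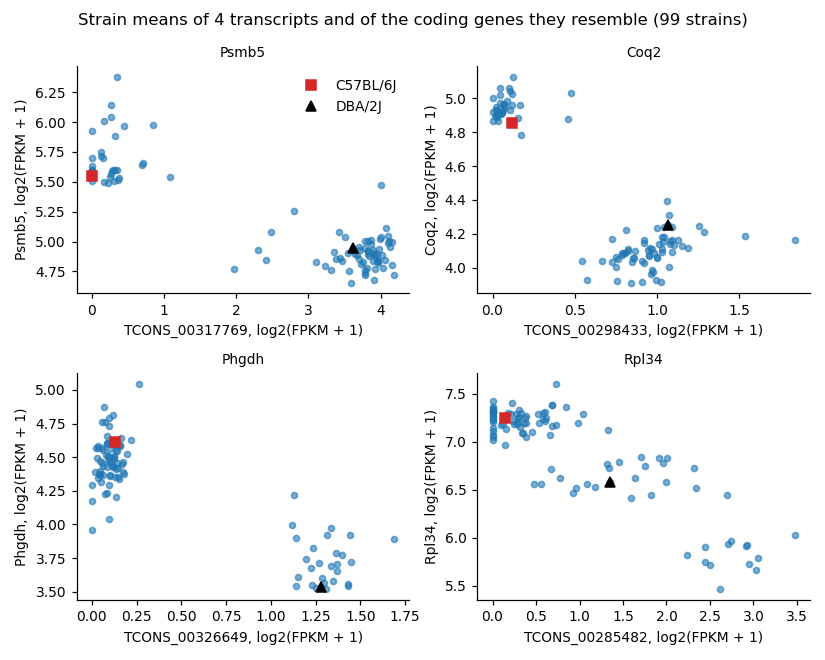
Strain means of log2(FPKM + 1) over 99 strains for TCONS_00317769, TCONS_00298433, TCONS_00326649 and TCONS_00285482 on the horizontal axes, against the level of the coding gene each resembles (Psmb5, Coq2, Phgdh and Rpl34) on the vertical axes, with 1 point per strain. C57BL/6J (red square, mean of 0.000393 FPKM of TCONS_00317769) lies low on the horizontal axes, and DBA/2J (black triangle, mean of 11.5 FPKM) lies to the right of it in each panel. The vertical axes show the whole gene, not its main transcript.

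The founder values show both sides of this. The main Psmb5 transcript, TCONS_00109266, stood at 41.1, 47.5 and 41.8 FPKM in C57BL/6J and at 21.2, 23.3 and 24.1 in DBA/2J, a fall by 0.90 on the log2(FPKM + 1) scale (adjusted p = 6.52e-06) beside the rise of its copy from near 0 to a mean of 11.5 FPKM. In A/J, BALB/cJ and C3H/HeJ this transcript had means of 20.7, 19.8 and 25.5 FPKM, with adjusted p values of 9.20e-08, 1.30e-08 and 0.000301. The main Phgdh transcript stood at 21 ± 0.76 FPKM (SD, 3 mice) in C57BL/6J and 9.70 ± 0.75 in DBA/2J (adjusted p = 8.38e-10), while its copy rose from a mean of 0.10 to 1.44 FPKM (adjusted p = 4.01e-13). In A/J the main Phgdh transcript was at 13.5 ± 2.87 FPKM (adjusted p = 0.0018), although the copy stood at a mean of 0.104. The main Coq2 transcript fell from 16.0 ± 0.96 to 9.94 ± 1.07 FPKM in DBA/2J (adjusted p = 0.0197), and its copy rose from 0.0904 to 1.10 FPKM (adjusted p = 1.17e-07). In these examples the difference in FPKM of the main transcript was unlike in size to that of the copy. FPKM are scaled to the length of each transcript, so these differences do not compare numbers of fragments. Over the 86 transcripts with a matched gene level, 25 were higher in DBA/2J than in C57BL/6J, and the main transcript of the matched gene was lower for 8 of these 25 and higher for 2. In A/J it was lower for 4 of 16, in BALB/cJ lower for 5 of 17, and in C3H/HeJ lower for 4 of 22 and higher for 2. Over all transcripts 0.935%, 1.06%, 0.849% and 0.870% were lower in these strains, but those shares cover transcripts of every level. In DBA/2J the main transcript also differed for matched genes whose copy was not called. It was lower beside such copies of Glul, Hmgn2, Sc5d and Rpsa, and higher beside such copies of Hspa8, Set, Rpl15 and Gapdh. The same Gapdh transcript was the main transcript for several copies. A share among the copies that were not called was not computed, and the shares over all transcripts are no background for the matched genes. How reads were shared between copy and source in the authors' estimates was not tested.

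The on or off transcripts were compared in the same way. TCONS_00138224 on chromosome 16 was most like a transcript of Scoc on chromosome 8 (r = -0.97), whose other transcript had r = 0.91. TCONS_00299036 on chromosome 6 was most like a transcript of Mzt1 on chromosome 14 (r = -0.93). TCONS_00210847 on chromosome 2 was most like Gm10709 and Abhd14a transcripts on chromosome 9 (r = -0.96 and 0.96). TCONS_00230775 on chromosome 3 was most like an unannotated transcript on chromosome 16 (r = 0.97), then Pla2g4e (r = -0.96) and Mfap1b (r = -0.95) on chromosome 2. TCONS_00023322 on chromosome 1 was most like Pofut1 (r = -0.91), which encodes a protein O-fucosyltransferase, and then Commd7 (r = -0.76 and -0.75), all on chromosome 2. TCONS_00253863 was most like an unannotated transcript on chromosome 15 (r = 0.92) and then one of Rps15a (r = -0.84), while the values nearest to TCONS_00279721 and TCONS_00382911 were lower (r = 0.61 with Fau and 0.72 with Gm20517). TCONS_00041616 was most like transcripts on its own chromosome 10, 2 of 1190007I07Rik (r = -0.96 and -0.89) and 1 of the DNA repair gene Tdg (r = -0.91), 40.5 to 40.6 Mb away. TCONS_00139337 was most like transcripts of Rsph3b (r = -0.92), Sod2 (r = 0.80), the mitochondrial superoxide dismutase gene, and Fndc1 (r = 0.79) on its own chromosome 17, and its sequence is 98.5% identical to Sod2, 0.323 Mb away. TCONS_00156142 was most like another unannotated transcript next to it, TCONS_00156143 (r = 0.92), and then BC051226 on the same chromosome (r = -0.91). TCONS_00023369 was most like transcripts of Smyd3 (r = 0.71) and Nvl (r = 0.65) and an unannotated one (r = -0.68) within 1.55 Mb on chromosome 1.

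A different group lay beside the start of known genes. Within 5 kb of a known transcript of the assembly there were 57 of the single-exon transcripts, of which 41 were upstream and 16 downstream, and 28 of those upstream were within 500 nt. Of the 41 upstream, 35 overlapped no M21 pseudogene exon and form the upstream group described above. M21 places an exon of a coding or other non-coding gene on 8 of these 35. They lay beside genes such as Tmem151b (19 nt away), the glutamate receptor gene Grik2 (56 nt), Zfp423 (66 nt), the adenylyl cyclase gene Adcy6 (75 nt) and the neurofilament gene Nefm (272 nt). Of the 13 with a strand, 11 lay on the strand opposite to the known transcript. The libraries were unstranded, and how the assembly came to these strands was not tested. Their strain means went with those of the neighbouring gene only in part, with a median r of 0.04 over the 35 and an r of 0.5 or more for 3, those beside Adcy6 (0.65), Zfp423 (0.61) and Med13 (0.57). TCONS_00111575 beside Nefm was the most abundant of the group, with a lowest value of 0, a median of 9.29 and a highest of 17.2 FPKM, and a strain share of 0.281.

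Promoter sequence from RefSeq (GRCm38.p6), from 250 bases before to 50 after a start, was matched to 14 of these 35 neighbours within 100 nt of their assembled start. CG dinucleotides, searched on the printed strand, numbered at least 15 in 12 of the 14, while 34.6% of all 32817 promoters held as many. The median GC content was 66.3% against 52.7%. The 14 belong to genes expressed in these mice, whereas the 32817 were not limited to such genes. No share over expressed genes was computed. The promoter of Tmem151b, chr17:45549628-45549927, minus strand, is printed as the one that its upstream transcript TCONS_00156167 overlaps most, over 232 of its 300 bases, with CG in capitals.
Tmem151b: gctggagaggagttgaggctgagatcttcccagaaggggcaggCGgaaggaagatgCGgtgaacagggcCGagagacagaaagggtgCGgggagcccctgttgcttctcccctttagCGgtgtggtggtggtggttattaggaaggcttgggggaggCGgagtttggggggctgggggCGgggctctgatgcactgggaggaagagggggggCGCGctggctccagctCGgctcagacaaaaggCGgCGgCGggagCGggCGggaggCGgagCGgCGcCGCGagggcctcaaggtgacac

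One single-exon transcript lay within 5 kb of a gene of the hypothalamic marker list. TCONS_00071978, 13352 nt at chr12:56516417-56529768, lies 2190 nt downstream of Nkx2-1, a homeobox transcription factor gene of the ventral forebrain, and overlaps the M21 gene Sfta3-ps over 4.64% of its length. Over all mice its lowest value was 0.263, its median 1.02 and its highest 2.15 FPKM, so it was above 0 in every mouse. Its strain share was 0.475 with strain means from 0.476 in BXH-4/TyJ to 1.83 in BXHB2, and its r with Nkx2-1 over strain means was 0.70. It did not pass the test in any of the 4 founder comparisons.

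The tissue was checked with marker lists. Genes of the hypothalamic list, such as Agrp, Pomc, Avp and Oxt, summed to 1049 to 10459 FPKM in each mouse, with 11 of 12 listed. The anterior pituitary list ranged from 0.589 to 16462 FPKM, the choroid plexus list from 7.25 to 2101, the thalamus list from 17.4 to 381 and the blood list from 32.4 to 580. None of the single-exon transcripts had an absolute r of 0.5 or more with any of these 5 sums over the mice without OB-547, and the largest was 0.44, for TCONS_00326619 with the thalamus list. In bulk tissue, fewer cells of a type and less RNA per cell cannot be told apart.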

How the data were processed

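Per the labels and the methods, mRNA libraries were aligned to mm10 with STAR 2.3.1 (up to 3 mismatches and 10 positions per read), assembled per strain with Cufflinks 2.2.0, merged with GENCODE M2, and quantified by Cuffquant with Cuffnorm 2.2.1. FPKM were deposited in the scaling of the authors, who kept class codes =, j and u, and features above 0 in at least 100 mice and above 1 FPKM in at least 50 (checked on the values). All 282 columns were used and 0 were left out. OB-273 and OB-274, which are multiples of each other, were averaged and counted as 1 sample. The members, lists and rules were chosen with earlier results of these data known.

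Single-exon transcripts of code u numbered 281. A log2 scale with a pseudocount of 1 FPKM was used for limma 3.58.1 (R 4.3.3) over all 51024 transcripts in 1 fit of 280 samples and 99 strains (planned with 281, before that pair was seen), with a moderated F test and contrasts against C57BL/6J and Benjamini-Hochberg adjustment at 0.05. Other values were computed in Python 3.11.15. The fit was tested on simulated data. Replicates are separate mice of a strain, and p values measure only the spread between them. Mouse OB-627, whose labels name different strains, was left out of comparisons. Depth is known only as the recovered relative depth, so no counting intervals were computed. Sequence came from GENCODE M21 transcripts and RefSeq promoters, and matches from blastn 2.17.0. A genome sequence was not used here.

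Named transcripts were the 10 highest means, the 10 largest strain shares, every on or off transcript, the 3 largest rises and falls called per founder, the 3 longest and shortest, those within 5 kb of a hypothalamic list gene, and the 3 most like transcripts of the first 5 on or off transcripts. All others named were chosen after their values were seen, as was the comparison with the position of the matched gene. Main transcript means that of highest mean FPKM. Alternatives were other pseudocounts, filters and scalings, covariates, a rank test, and leaving out replicates and libraries.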

Additional observations from a re-analysis of the deposited data

Results flagged for a closer look

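TCONS_00023369 moved in opposite directions in different founders, which flagged it. Its difference from C57BL/6J in log2(FPKM + 1) was 1.72 in BALB/cJ and 1.37 in C3H/HeJ, and -2.07 in A/J. Every BALB/cJ mouse (12.5, 13.2 and 12.7 FPKM) and every C3H/HeJ mouse (13.4, 7.99 and 8.74 FPKM) was above the C57BL/6J mice (5.65, 2.13 and 2.53 FPKM), and every A/J mouse was at 0. The difference between these differences was not tested, and the same C57BL/6J mice enter each.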

How the results depend on the processing

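Counts moved most where the table or the state rule changed. With a mean of at least 1 FPKM, which leaves 155 of the single-exon transcripts, 126 differed between strains, 41 in DBA/2J, 35 in A/J, 30 in BALB/cJ and 39 in C3H/HeJ. With only the 2 strains in the fit the founder counts were 44, 21, 24 and 32 in that order, of which 42, 21, 24 and 32 were higher. Off below 0.5 FPKM gave 41 on or off transcripts, 91 off in C57BL/6J and 152 opposite founder states in place of 85, and on from 0.5 FPKM gave 128. Asking for 90% of strains left 5 on or off transcripts and no limit gave 118. At 95% identity over 80% of the length 38 transcripts matched a coding transcript. Without replicate 1, 2 or 3 in turn, the F test called 160 to 181, the median strain share was 0.307 to 0.397, on or off patterns numbered 15 to 17, transcripts off in C57BL/6J 62 to 83 and opposite founder states 116 to 136. Leaving out a replicate number or a mouse of either strain gave 60 to 70 calls in DBA/2J, 42 to 51 in A/J, 40 to 52 in BALB/cJ and 48 to 57 in C3H/HeJ. Without the 19 libraries that stood apart 201 of the single-exon transcripts and 14936 of all transcripts differed between strains, against 214 and 23401. Without replicate 2, 12367 of all transcripts did, without replicate 1, 14103. With OB-273 and OB-274 kept as 2 mice the numbers were 216 and 23889. For named transcripts 1026 values kept their call and direction and 40 lost the call, and none changed sign. The calls lost most often were those of TCONS_00293944 in C3H/HeJ and TCONS_00178527 in BALB/cJ. Of the counts and median shares computed under alternatives, many of them listed above, 137 were within 1.5 times or 1 SD of the value reported and 19 were not. Keeping OB-273 and OB-274 as 2 mice, leaving out the 19 libraries, restricting the fit to transcripts alone in their locus, and the alternatives for transcripts off in C57BL/6J, founder states and the position of the most like transcript were chosen after seeing the data. No paired analysis was possible because the labels carry no replicate numbers shared between strains.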

Other observations

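Mouse OB-627 is titled AXB8 and labelled AXB-6/PgnJ, and entered no comparison. The mice of AXB-6/PgnJ and AXB-8/PgnJ, 2 each, had opposite states for 23 of the single-exon transcripts. OB-627 had the state of AXB-8/PgnJ for 13 of these, that of AXB-6/PgnJ for 6 and neither for 4. It was at 0 FPKM for TCONS_00023322, TCONS_00023369 and TCONS_00139337, which were on in AXB-6/PgnJ and off in AXB-8/PgnJ, and at 4.39 FPKM for TCONS_00138224, which was off in AXB-6/PgnJ and on in AXB-8/PgnJ. It was at 0 for TCONS_00345898 and TCONS_00382910, which were off in AXB-6/PgnJ and on in AXB-8/PgnJ.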
